A study of Mus musculus with 12 samples.

Results

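MC38 tumours treated with an antibody-catalyst conjugate against PD-L1 plus doxorubicin were compared with tumours given PBS, across all genes measured by RNA-seq. The comparison used 4 of the 12 libraries of the series: 2 of the group labelled R+X and 2 of the group labelled Ctrl, chosen by those labels alone. MC38 is a mouse colon carcinoma line, and all tumours grew under the skin of C57BL/6J mice aged 8 weeks at injection of the cells. Treatment was given every 3 days from day 9 in every group. Ctrl mice received PBS into the peritoneum. R+X was read as the conjugate Ru-PD-L1 followed 6 hours later by 14 µg of doxorubicin (DOX) injected beside the tumour, as X is a letter of DOX and of no other treatment name. If R+X were the combination with the prodrug DPD instead, the values would be those of that combination. The dose of conjugate in the combination was not stated. Tumours were taken on day 20. For differences from the single agents, R+X was also compared with RP, read as 20 µg of Ru-PD-L1 alone, and with DOX alone at 14 µg, both given into the peritoneum and with 2 libraries each. The route of doxorubicin therefore differed between R+X and DOX, and no PBS group was injected beside the tumour. The effect of that injection cannot be told apart from the effect of the drugs.

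PD-L1, encoded by Cd274, is a ligand on tumour and myeloid cells that restrains T cells through the receptor PD-1, and interferon gamma raises its expression. An antibody against PD-L1 can release this restraint. Doxorubicin is an anthracycline that traps type II topoisomerases on DNA and so causes DNA breaks, which stabilise p53 and stop or kill dividing cells. In bulk tumour RNA, genes of red blood cells, lymphocytes, myeloid cells and stroma are measured together with those of the carcinoma cells, so fewer cells of a type and less RNA per cell cannot be told apart.

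The R+X libraries held 47462762 and 52359825 counts and the Ctrl libraries 51719272 and 47748895. The libraries of R+X differed less from each other than those of Ctrl: the chi-square per degree of freedom of their counts was 13.2 in R+X and 76.6 in Ctrl. Of the Ctrl and R+X libraries, Ctrl replicate 2 stood apart, with lower values for long genes and higher values for short ones. The median deviation from the mean of all 12 libraries, in the longest of 5 length classes of genes minus the shortest, was -0.674 on the log2 scale in this library and -0.183 in Ctrl replicate 1. In R+X the longest class was 0.206 and 0.145 higher than the shortest. The DOX libraries lay on opposite sides, at -0.588 in DOX replicate 1, close to Ctrl replicate 2, and 0.374 in DOX replicate 2. Markers of carcinoma epithelium summed to 145 and 147 CPM in Ctrl and 135 and 156 CPM in R+X. CPM are counts scaled to a common library size, so they compare a gene between libraries and not genes of different length. Most of that sum came from Msln, a cell surface glycoprotein of mesothelium and carcinomas, at 114 and 118 CPM in Ctrl and 106 and 126 CPM in R+X. Defining markers of gut epithelium were low: Epcam had 2 to 26 counts and Krt8 0 to 3 counts in these 4 libraries. Cdh1, which encodes E-cadherin, had 15.7 and 14.3 CPM in Ctrl and 15.7 and 18.1 CPM in R+X.

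No gene passed the test between R+X and Ctrl. Of 19525 genes tested with edgeR's quasi-likelihood test and Benjamini-Hochberg adjustment, 0 were higher and 0 lower at an adjusted p under 0.05 (0% in each direction), and the lowest adjusted p was 0.405. At an unadjusted p under 0.05, 689 genes were higher (3.53%) and 483 lower (2.47%). DESeq2 called 3 genes higher (Pakap, Elk4 and Pygo1) and 1 lower (Saa3), limma-voom called 0, and edgeR on the 4 libraries alone called 2 higher (Pakap and Elk4) and 4 lower, all of them haemoglobin genes. The median log2 fold change of all genes was 0.01, with quartiles of -0.29 and 0.33. Both R+X libraries lay above both Ctrl libraries in 28.5% of genes and below both in 27.5%. The number of genes at an unadjusted p under 0.05 depended on single libraries: it was 198 higher and 109 lower without Ctrl replicate 2, 1482 and 1167 without Ctrl replicate 1, and 303 and 171 without R+X replicate 2. Without R+X replicate 1, 212 genes were higher and slightly more were lower. It was 1763 and 1459 without the DOX libraries. Whether each library came from a different mouse is not stated.

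**Figure D1:**
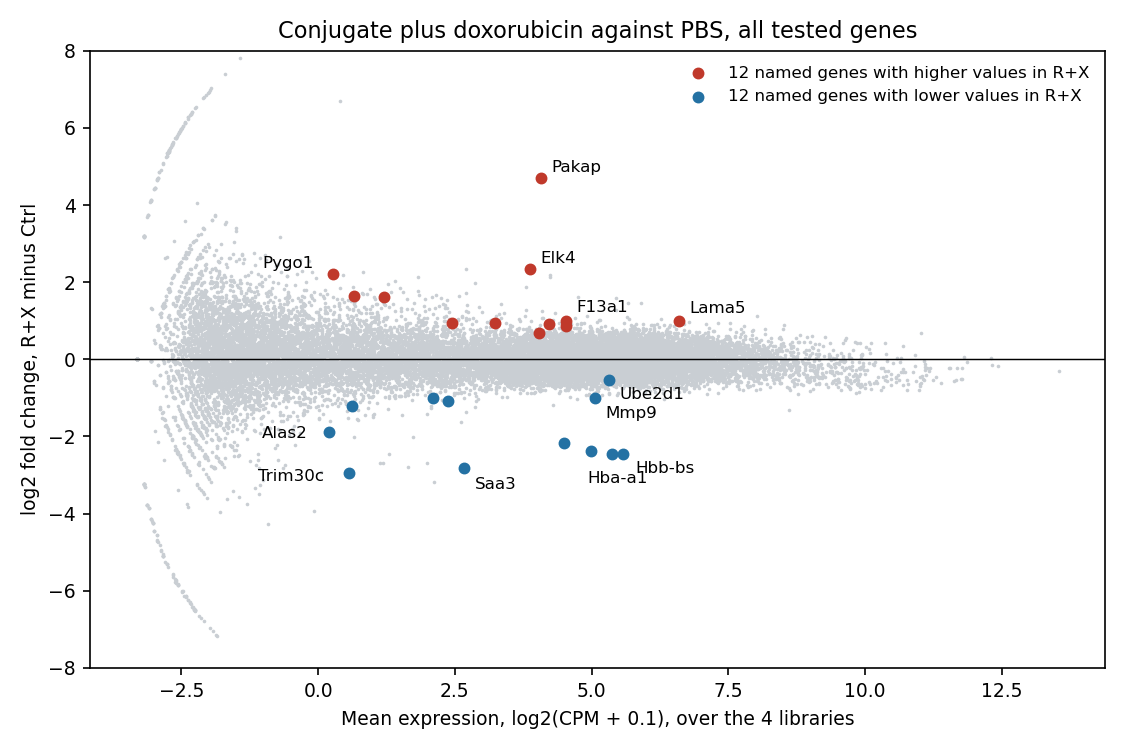
Log2 fold change of tested genes between R+X and Ctrl (vertical axis) against its mean expression as log2(CPM + 0.1) over the 4 libraries (horizontal axis). Red and blue points are the 12 genes of smallest p in each direction among those with a mean of at least 1 CPM and groups that did not overlap, and 4 genes lie outside the vertical range. Pakap lies at 4.69 and the haemoglobin genes lie between -2.45 and -2.18.

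Of the gene lists examined, red blood cells had the lowest values in R+X relative to PBS. Hba-a1 and Hba-a2 encode alpha globin, Hbb-bs and Hbb-bt encode adult beta globin, and Alas2 encodes the first enzyme of haem synthesis in red cell precursors. Because the results turn on these genes, the 120 bases before each RefSeq start are shown (GRCm38.p6), read 5′ to 3′ on the strand of the gene. Capitals mark 3 motifs known from red cell promoters, on either strand: the CCAAT box, the CACCC box and the GATA motif AGATAA. The CACCC and AGATAA motifs were added after the values were seen.
Hba-a1 (chr11:32283552-32283671, plus strand): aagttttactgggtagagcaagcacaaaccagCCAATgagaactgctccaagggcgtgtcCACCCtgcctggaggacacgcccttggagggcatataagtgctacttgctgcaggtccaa
Hba-a2 (chr11:32296372-32296491, plus strand): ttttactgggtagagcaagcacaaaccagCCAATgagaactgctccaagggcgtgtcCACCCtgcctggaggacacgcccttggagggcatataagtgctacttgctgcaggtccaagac
Hbb-bs (chr7:103827929-103828048, minus strand): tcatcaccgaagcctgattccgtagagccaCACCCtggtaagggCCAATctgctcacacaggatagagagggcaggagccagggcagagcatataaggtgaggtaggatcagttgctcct
Hbb-bt (chr7:103813924-103814043, minus strand): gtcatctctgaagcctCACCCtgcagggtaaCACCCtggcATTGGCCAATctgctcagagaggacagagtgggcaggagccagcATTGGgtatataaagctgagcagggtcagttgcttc
Alas2 (chrX:150547297-150547416, plus strand): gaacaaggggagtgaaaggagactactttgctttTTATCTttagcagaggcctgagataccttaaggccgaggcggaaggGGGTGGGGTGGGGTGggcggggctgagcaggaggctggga
The windows of Hba-a1 and Hba-a2 shared 117 of 120 bases after alignment, and those of Hbb-bs and Hbb-bt shared 93. Of these 5 promoters, 4 held CCAAT, 5 CACCC and 2 AGATAA in the 250 bases before the start, against 34.5%, 51.3% and 10.3% of 27025 promoters. The genes of each globin pair are also near copies of each other in their coding sequence, so its reads could have been split between the copies.

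Gene positions are those of GRCm38. Hba-a1 (chr11:32283672-32284486) had 65 and 75.6 CPM in Ctrl and 9.91 and 15.9 CPM in R+X, a log2 fold change of -2.44 ± 0.59 (SE). Hba-a2 (chr11:32296492-32297310) had 48.2 and 58.1 CPM in Ctrl and 7.76 and 12.7 CPM in R+X (-2.38 ± 0.59). Hbb-bs (chr7:103826523-103827928) had 76.1 and 84 CPM in Ctrl and 12.3 and 16.9 CPM in R+X (-2.45 ± 0.61). In each of these genes both R+X libraries lay far below both Ctrl libraries. Hbb-bt (chr7:103812524-103813923) had 32.6 and 40.8 CPM in Ctrl and 6.54 and 9.62 CPM in R+X (-2.18 ± 0.57). Alas2 (chrX:150547417-150570622) had 1.39 and 1.88 CPM in Ctrl and 0.642 and 0.249 CPM in R+X (-1.88 ± 0.49). The edgeR adjusted p was 0.575 for each of these 5 genes, none of which passed. In the edgeR fit of the 4 libraries alone it was 0.0167 for Hbb-bs, 0.0426 for Hba-a1 and 0.0453 for both Hba-a2 and Hbb-bt.

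All 6 tested genes of the red cell list of 9 had lower values in R+X, with no overlap between the groups and an unadjusted p under 0.05. Over all genes, 27.5% were lower without overlap and 2.47% lower at that p. The list median was -2.41, against 0.01 for all genes. Slc4a1, which encodes the anion exchanger of the red cell membrane, had 0 to 4 counts in these 4 libraries. Leaving out 1 library at a time gave list medians between -2.75 and -2.10. Summed over the list, the level was 224 and 261 CPM in Ctrl, 37.2 and 55.5 CPM in R+X, 51.1 and 87.8 CPM in RP and 369 and 348 CPM in DOX. R+X and RP overlapped, and both lay below every Ctrl and DOX library. The difference between R+X and DOX had a median of -2.94, with 6 of 6 genes at an unadjusted p under 0.05. Against RP the median was -0.59, with 0 of 6 genes at that level.

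**Figure D2:**
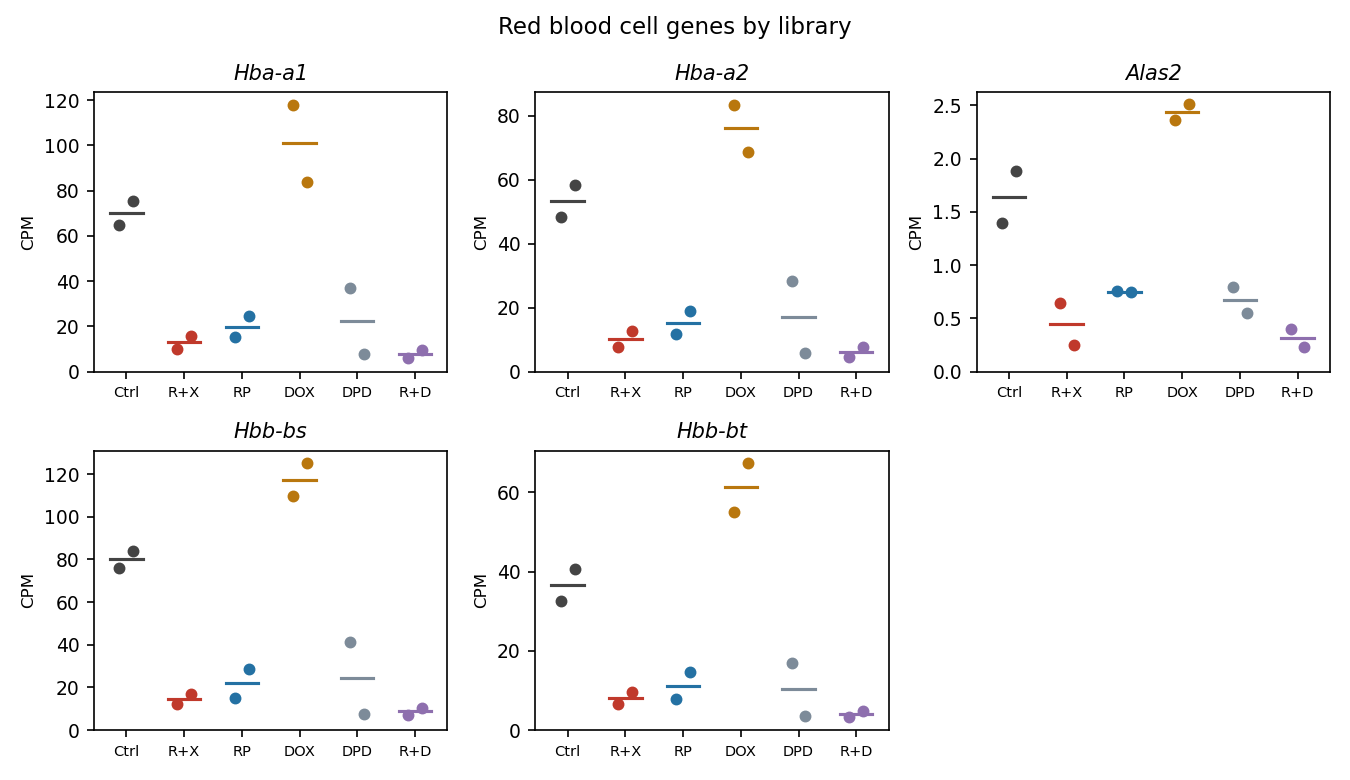
Level of 5 red blood cell genes in CPM (vertical axes, linear) in each library of the 6 groups (horizontal axes). Points are libraries and bars are means of 2; in each gene both R+X libraries lie below both Ctrl and both DOX libraries.

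The 12 genes of smallest p with higher values in R+X had log2 fold changes from 0.69 to 4.69. Pakap, a locus that joins the genes of paralemmin-2 and the kinase anchor AKAP2, stood first (chr4:57434475-57896984), with 1.41 and 1.07 CPM in Ctrl and 35.9 and 28.4 CPM in R+X (4.69 ± 0.64, edgeR adjusted p = 0.405). Its level was 24.9 and 30.5 CPM in RP and 29.5 and 45.3 CPM in DOX. The Ctrl libraries were far below these 3 groups, which overlapped with one another. The reads of the locus were counted under 3 names, and Akap2 had 99.3 and 64.9 CPM in Ctrl and 101 and 93.2 CPM in R+X. With the 3 names summed, a step chosen after seeing the data, the locus had 102 and 66.7 CPM in Ctrl and 139 and 123 CPM in R+X, and the log2 fold change was 0.64 ± 0.28 with an edgeR adjusted p of 0.575. Elk4, a partner of serum response factor in the transcription of immediate early genes, had 4.1 and 5.52 CPM in Ctrl and 26.6 and 21.8 CPM in R+X (2.33 ± 0.55). It overlaps Mfsd4a, and with both names summed the log2 fold change was 1.31 ± 0.55.

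By the rule that chose the 12 genes in each direction, the groups did not overlap in any of them. Lama5, the laminin alpha 5 chain of basement membranes, had 77.7 and 52.4 CPM in Ctrl and 124 and 133 CPM in R+X (0.98 ± 0.27). Ptprk, a receptor tyrosine phosphatase at cell contacts, had 19.2 and 13.8 CPM in Ctrl and 29.8 and 29.8 CPM in R+X (0.85 ± 0.25). Pard3b, a relative of the polarity protein Par3, had 6.83 and 5.83 CPM in Ctrl and 11.6 and 12.8 CPM in R+X (0.95 ± 0.27). Both R+X libraries were close to each other in these 3 genes. F13a1, the A subunit of clotting factor XIII, which macrophages also make, had 15.2 and 15.4 CPM in Ctrl and 35.2 and 25.9 CPM in R+X (1.00 ± 0.25), and it was higher still in RP, at 48.2 and 73.9 CPM. Pygo1, a cofactor of Wnt target transcription, had 0.392 and 0.395 CPM in Ctrl and 1.61 and 2.05 CPM in R+X (2.21 ± 0.41). Mtr, methionine synthase, had 13.5 and 12.4 CPM in Ctrl and 25 and 23.7 CPM in R+X (0.91 ± 0.27). The remaining genes were Drp2, Prex2, Abca4 and Snx30, with log2 fold changes of 1.64 ± 0.41, 1.61 ± 0.43, 0.94 ± 0.28 and 0.69 ± 0.21. For each of these 11 genes other than Pakap the edgeR adjusted p was 0.575.

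Among the 12 genes of smallest p with lower values, those other than the 5 red cell genes had log2 fold changes from -2.94 to -0.54. Saa3, an acute phase serum amyloid made by macrophages and other cells under inflammation, had 16.9 and 5.04 CPM in Ctrl and 1.88 and 1.22 CPM in R+X (-2.82 ± 0.63). The Ctrl libraries themselves lay far apart in Saa3. Mmp9, the gelatinase B of neutrophils and macrophages, had 42.4 and 46.4 CPM in Ctrl and 22.3 and 22.3 CPM in R+X (-0.99 ± 0.28), so the spread within each group was small beside the difference. Trim30c, of a gene cluster with close copies, had 4.1 and 0.789 CPM in Ctrl and 0.331 and 0.306 CPM in R+X (-2.94 ± 0.73), so its difference rested mostly on Ctrl replicate 1. Pemt, which makes phosphatidylcholine from phosphatidylethanolamine, had 6.32 and 7.5 CPM in Ctrl and 3.08 and 3.42 CPM in R+X (-1.09 ± 0.28). Asphd2, Chst7 (a carbohydrate sulfotransferase) and Ube2d1 (a ubiquitin-conjugating enzyme) had log2 fold changes of -0.99 ± 0.25, -1.22 ± 0.33 and -0.54 ± 0.15. The edgeR adjusted p was 0.575 for each of these 7 genes.

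**Figure D3:**
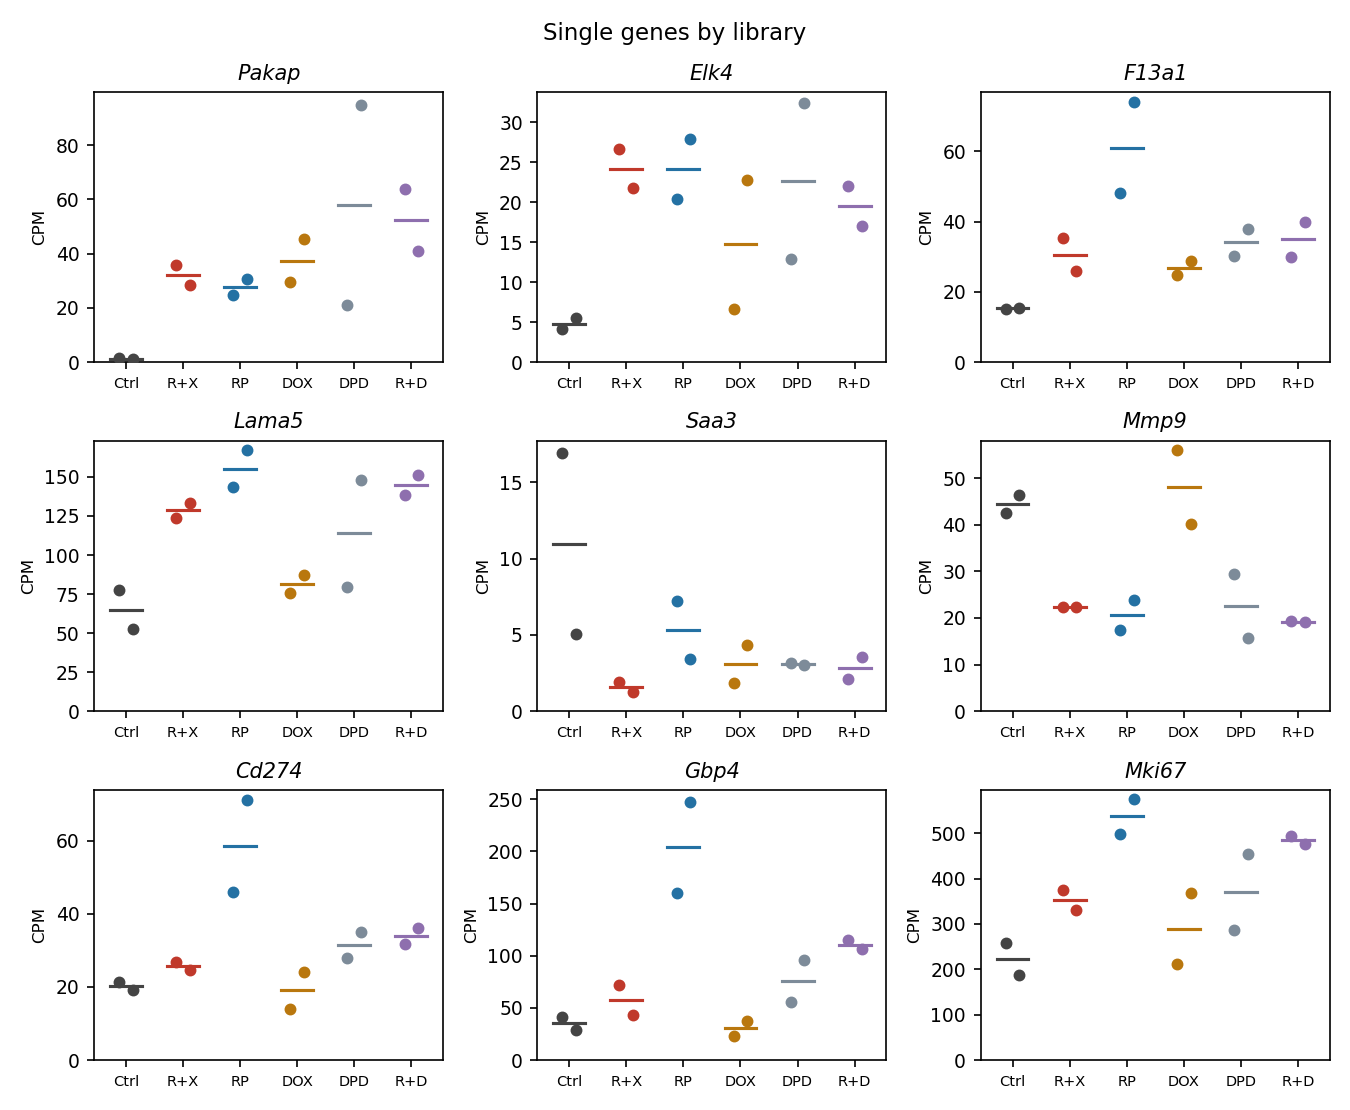
Level of 9 genes in CPM (vertical axes, linear) in each library of the 6 groups (horizontal axes). Points are libraries and bars are means of 2; Pakap is low only in Ctrl, Mmp9 is about 22.3 CPM in both R+X libraries, and Cd274 and Gbp4 are highest in RP.

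Long genes and short genes differed between R+X and Ctrl over the whole table. In 5 classes of equal size of the 16396 genes with a known exon length, from the shortest to the longest, the median log2 fold change was -0.32, -0.18, -0.03, 0.10 and 0.30. Across these genes Spearman's rho of length and fold change was 0.41, a description, since genes are not independent replicates. All 12 named higher genes were longer than the median of 4024.5 bases, at 6407 to 16609 bases, and 11 of the 12 lower ones were shorter, with the exception of Ube2d1. With the trend on length removed, Lama5 had 0.66 on the log2 scale, Ptprk 0.48, Pard3b 0.58, Hba-a1 -2.28 and Mmp9 -0.93. Of the genes named in the lists that follow, those of antigen presentation B2m, Cd74 and Nlrc5 had -0.15, -0.37 and 0.37 after the removal, and Timp3, Pdk1, Xdh and Abcb1b had 0.36, 0.32, 0.32 and 0.16. Gpx1 had -0.38, Sdhb -0.37, Timp1 -0.35 and Calr -0.09. All of these were closer to 0 than the values of the fit without it. Other genes named below moved away from 0, so the removal did not weaken every difference. Among them, after the removal, Mrps35 had -0.79, Akr1b3 -0.72, Hmgb1 -0.45, Egln3 0.63, Xrcc3 0.88, Prf1 0.88 and Gzmb 0.34. The part of gene length in the lists that follow was not tested beyond this removal.

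**Figure D4:**
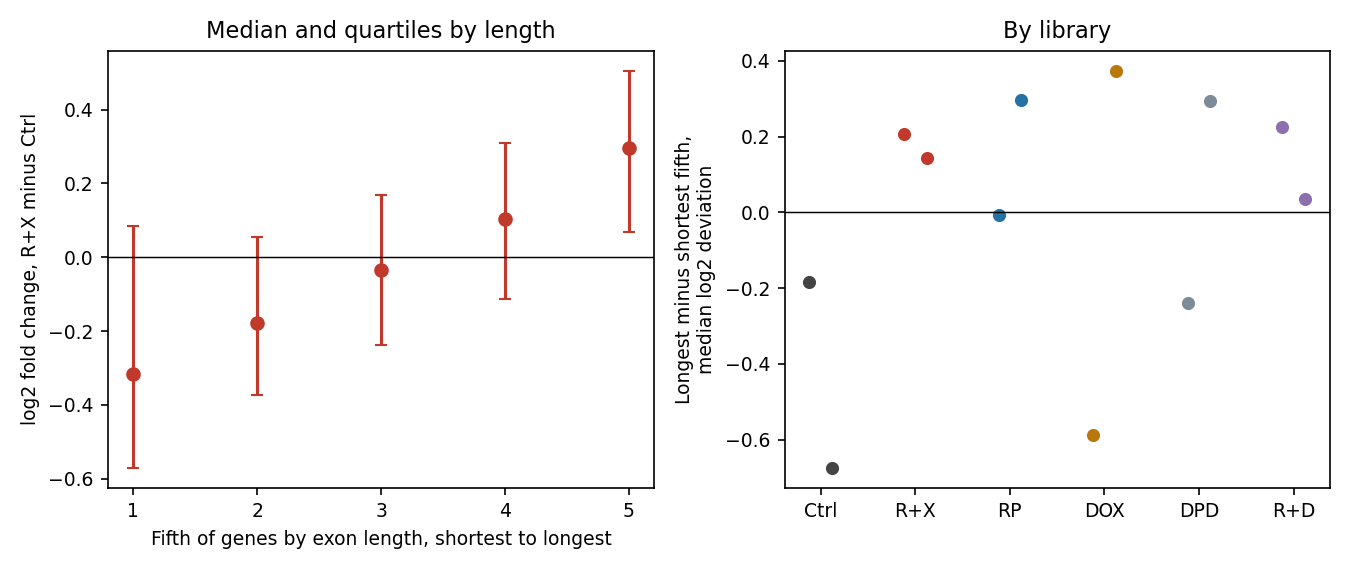
Left, median log2 fold change of R+X against Ctrl with quartiles (vertical axis) in 5 classes of genes by exon length (horizontal axis), running from -0.32 in the shortest to 0.30 in the longest. Right, median log2 deviation from the mean of all libraries in the longest class minus that in the shortest (vertical axis) for each library of the 6 groups (horizontal axis); Ctrl replicate 2 is lowest at -0.674.

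Genes of ribosomes and respiration had lower values in R+X throughout their lists. Of 28 cytosolic ribosomal protein genes, 28 were lower in both R+X libraries than in both Ctrl libraries (27.5% of all genes were). At an unadjusted p under 0.05, 2 of them were lower, and 2.47% of all genes were. The median was -0.54 (range -0.81 to -0.23). Rps14, a protein of the small subunit, had 1459 and 2966 CPM in Ctrl and 1159.9 and 1370.1 CPM in R+X (-0.81 ± 0.36). Ctrl replicate 2 was far above the other 3 libraries in this gene. Without Ctrl replicate 2 the ribosomal median was -0.21. Of 29 genes of respiratory complexes I to V, 29 had negative fold changes, 25 of them with separate groups and 4 at an unadjusted p under 0.05, with a median of -0.51. Ndufa4, of the respiratory chain, had 40.2 and 74.7 CPM in Ctrl and 30.4 and 32.4 CPM in R+X (-0.87 ± 0.36). Sdhb, the iron-sulfur subunit of complex II, had 136 and 205 CPM in Ctrl and 109.7 and 121 CPM in R+X (-0.57 ± 0.24). The median was -0.23 without Ctrl replicate 2 and -0.32 with the length trend removed. Of 23 mitochondrial ribosomal protein genes, 23 were lower in both R+X libraries, with a median of -0.39, and -0.21 without Ctrl replicate 2. Among them Mrps35 had 36.5 and 54.6 CPM in Ctrl and 28.8 and 32.7 CPM in R+X (-0.57 ± 0.23).

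Genes that interferon gamma induces had slightly higher values in R+X, and this rested on R+X replicate 1. Of 30 genes, 23 had positive fold changes and 1 had an unadjusted p under 0.05, with a median of 0.30. That gene was higher, as were 3.53% of all genes at that p. With separate groups, 8 were higher and 2 lower, against 28.5% and 27.5% of all genes. The summed level was 1875 and 1533 CPM in Ctrl, 2415 and 1655 CPM in R+X and 4055 and 5129.6 CPM in RP. The second R+X library thus lay between the Ctrl libraries, and without R+X replicate 1 the median was -0.04. It was 0.13 without Ctrl replicate 2. Ido1, which breaks down tryptophan, had 1.67 and 1.18 CPM in Ctrl and 3.77 and 2.28 CPM in R+X (1.08 ± 0.47). Gbp4 and Gbp5 encode guanylate-binding proteins of defence against intracellular pathogens. Gbp4 had 41.6 and 29.1 CPM in Ctrl and 71.8 and 43 CPM in R+X (0.70 ± 0.36) and Gbp5 had 19.9 and 13.9 CPM in Ctrl and 33.5 and 21.4 CPM in R+X (0.70 ± 0.35). The transcription factor Irf1 had 221 and 209 CPM in Ctrl and 235 and 163 CPM in R+X (-0.11 ± 0.22), with overlapping groups. Cxcl9 and Cxcl10, ligands of the receptor CXCR3 on activated T cells, had fold changes of -0.16 ± 0.35 and -0.09 ± 0.24 on the log2 scale. In 18 of the 30 genes with a promoter in the RefSeq table, TTCNNNGAA (GAS) occurred in 8 and GAAANNGAA (ISRE core) in 14 within 250 bases before the start on either strand, against 7.18% and 7.16% of all promoters. The matches can share bases, and a match is not a shown binding site.

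Cd274, the gene of PD-L1 itself, had 21.4 and 19.3 CPM in Ctrl and 26.9 and 24.7 CPM in R+X (0.35 ± 0.27, edgeR adjusted p = 0.608). The groups did not overlap, but the difference was little more than its standard error. In RP it was 46 and 70.9 CPM. Pdcd1, the gene of PD-1, had 3.02 and 3.06 CPM in Ctrl and 3.62 and 1.59 CPM in R+X (-0.23 ± 0.37). The 16 genes of checkpoint receptors and ligands had a median of 0.09, with 9 positive and 7 negative. Pvr, a ligand of TIGIT that tumour cells carry, had 59.8 and 58 CPM in Ctrl and 73.8 and 75.7 CPM in R+X (0.34 ± 0.15). It was the 1 gene of the 16 at an unadjusted p under 0.05, and 3.53% of all genes were higher at that p.

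Antigen presentation genes had lower values in R+X. Of 12 genes of MHC class II presentation, 9 had negative fold changes, 8 with separate groups and 4 at an unadjusted p under 0.05. The median was -0.50. Over all genes, 27.5% were lower with separate groups and 2.47% lower at that p. H2-Aa, a class II alpha chain, had 131 and 145 CPM in Ctrl and 86.3 and 89.9 CPM in R+X (-0.65 ± 0.26). H2-Eb1, a beta chain, had 117 and 129.9 CPM in Ctrl and 72 and 78.4 CPM in R+X (-0.71 ± 0.27). Cd74, the invariant chain that accompanies class II molecules, had 858 and 924 CPM in Ctrl and 569 and 615 CPM in R+X (-0.59 ± 0.23). H2-DMa, of the peptide exchange machinery, had a log2 fold change of -0.56 ± 0.24. The class II median was -0.31 without Ctrl replicate 2 and -0.30 with the length trend removed. Against DOX alone the median was 0.22, with 2 of 12 genes negative. Of 20 genes of class I presentation, 16 had negative fold changes and 0 had an unadjusted p under 0.05, with a median of -0.28, or -0.15 with the length trend removed. B2m, the light chain of class I, had 1666 and 2018 CPM in Ctrl and 1516 and 1424 CPM in R+X (-0.33 ± 0.19). Nlrc5, the activator of class I transcription and a long gene, lay the other way, at 108 and 61.6 CPM in Ctrl and 146 and 110.2 CPM in R+X (0.59 ± 0.33).

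Lymphocyte genes were low in both groups. Of 22 tested T cell genes, 8 were lower and 1 higher in R+X with groups that did not overlap, against 27.5% lower and 28.5% higher of all genes. The 25 T cell genes, 22 of them tested, summed to 126 and 113 CPM in Ctrl and 114 and 98.6 CPM in R+X, with a median of -0.33. At an unadjusted p under 0.05, 1 of the 22 was lower, and 2.47% of all genes were. Without R+X replicate 2 the median was -0.01, and without R+X replicate 1 it was -0.69. Cd3e, of the T cell receptor complex, had 3.75 and 4.02 CPM in Ctrl and 3.37 and 2.05 CPM in R+X (-0.52 ± 0.35). Cd8a had 8.14 and 4.48 CPM in Ctrl and 6.99 and 3.1 CPM in R+X (-0.33 ± 0.44), and the libraries of each group lay further apart than the groups. The 22 genes of cytotoxic effectors had a median of -0.11, between -0.31 and 0.13 with 1 library left out and 0.08 with the length trend removed, so the list had no stable direction. Prf1, which encodes perforin, had 8.95 and 6.29 CPM in Ctrl and 13.6 and 11.6 CPM in R+X (0.72 ± 0.38). Gzmb, granzyme B, had 10.05 and 6.45 CPM in Ctrl and 10.7 and 7.27 CPM in R+X (0.12 ± 0.38). Ctsw, the cathepsin of cytotoxic cells, had 3.92 and 3.76 CPM in Ctrl and 2.52 and 2.16 CPM in R+X (-0.71 ± 0.28). The groups were separate in Prf1 and Ctsw, which lay in opposite directions, and overlapped in Gzmb. Ifng itself had 0.608 and 0.905 CPM in Ctrl and 0.807 and 0.574 CPM in R+X, with overlapping groups. Genes of natural killer cells, regulatory T cells and B and plasma cells had medians of -0.16, 0.08 and -0.44, the last over 7 tested genes. With 1 library left out the natural killer median lay between -0.33 and 0.16 and that of B and plasma cells between -0.85 and 0.23. Jchain, of plasma cells, had 2.43 and 1.76 CPM in Ctrl and 2.48 and 0.478 CPM in R+X.

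Myeloid genes lay in both directions. Of 25 genes of macrophages and monocytes, 9 had positive and 16 negative fold changes, with a median of -0.09. With separate groups, 9 were lower and 3 higher, against 27.5% lower and 28.5% higher of all genes. Itgam, the CD11b integrin, had 54.8 and 37.7 CPM in Ctrl and 69.9 and 72.3 CPM in R+X (0.62 ± 0.26). Mrc1, the mannose receptor of alternatively activated macrophages, had 35.6 and 31.9 CPM in Ctrl and 48.5 and 51.2 CPM in R+X (0.56 ± 0.24). Fcgr1, the high-affinity IgG receptor, lay the other way with 17.2 and 17.1 CPM in Ctrl and 12.7 and 11.1 CPM in R+X (-0.52 ± 0.19). These 3 genes each had separate groups and an unadjusted p under 0.05. Adgre1, which encodes F4/80, had 20.5 and 18.9 CPM in Ctrl and 25.7 and 19.9 CPM in R+X (0.21 ± 0.20). Cd68, of the same list, had a log2 fold change of -0.25 ± 0.24, with separate groups. The 21 neutrophil genes, 14 tested, summed to 83.8 and 76.8 CPM in Ctrl and 61 and 54.8 CPM in R+X, and Mmp9 alone had a difference of about that size. The neutrophil median was 0.05, and between -0.82 and 0.34 with 1 library left out. Inflammatory cytokines had a median of -0.24 over 23 genes, or -0.07 with the length trend removed, with 0 at an unadjusted p under 0.05. In the list of CC and CXCR3 chemokines and receptors, 20 of 25 tested genes had negative fold changes (median -0.20, or -0.10 with the length trend removed). Ccl11, the eosinophil attractant eotaxin, had 2.79 and 3.85 CPM in Ctrl and 1.24 and 2.16 CPM in R+X (-0.96 ± 0.37).

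Of 18 genes of fibroblasts and pericytes, 14 had negative fold changes, 9 of them with separate groups. Another 3 genes were higher with separate groups, where 27.5% of all genes were lower and 28.5% higher. The median was -0.18 (-0.23 to -0.13 with 1 library left out). Endothelium had a median of 0.01 over 18 genes and collagens 0.11 over 18, and both were negative without Ctrl replicate 2 (-0.11 and -0.10) and with the length trend removed (-0.03 and -0.12). Pecam1, of endothelial cells, had 24.8 and 20.7 CPM in Ctrl and 25 and 23.9 CPM in R+X (0.10 ± 0.18). Col1a1, of type I collagen, had 438 and 333 CPM in Ctrl and 352 and 402 CPM in R+X (-0.03 ± 0.41). Of the matrix proteases and their inhibitors, Adamts1 had 33 and 28.7 CPM in Ctrl and 41.9 and 49 CPM in R+X (0.56 ± 0.21). Timp3 had 417 and 373 CPM in Ctrl and 525 and 645 CPM in R+X (0.57 ± 0.29). Timp1 had 134 and 155 CPM in Ctrl and 99.4 and 101 CPM in R+X (-0.53 ± 0.25). Adamts1 and Timp3 thus had higher values, and Timp1 and Mmp9 lower ones, in both R+X libraries. Genes of fat cells had a median of -0.91 over 9 tested genes, and Fabp4, their fatty acid carrier, had 10.01 and 9.8 CPM in Ctrl and 4.14 and 5.2 CPM in R+X (-1.08 ± 0.41). The median for fat cells was -0.32 without R+X replicate 2 and -0.55 without Ctrl replicate 2. Of the 9 genes, 7 had negative and 2 positive fold changes. With separate groups, 4 were lower and 1 higher (Plin4, 0.56 ± 0.30), against 27.5% and 28.5% of all genes. Summed over the 12 listed genes, fat cells had 43.5 and 37.8 CPM in Ctrl and 42 and 41.9 CPM in R+X, with overlapping groups. The sum thus showed no lower level in R+X. Skeletal muscle genes summed to 268 and 329.9 CPM in Ctrl and 238 and 224 CPM in R+X, so the R+X sums lay below those of Ctrl. Skin genes summed to 501 and 407 CPM in Ctrl and 466 and 379.5 CPM in R+X and overlapped. The part of fat, muscle or skin tissue in other results was not tested.

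Topoisomerases, p53 targets and repair genes bear on the known action of doxorubicin. Top2a, the topoisomerase of dividing cells that the drug targets, had 596 and 524 CPM in Ctrl and 807 and 708 CPM in R+X (0.43 ± 0.21). Top2b had 117 and 104 CPM in Ctrl and 137 and 138 CPM in R+X (0.32 ± 0.27). Both had separate groups, and with the length trend removed Top2a had 0.19 and Top2b -0.08. The 28 p53 targets had a median of 0.04, between -0.05 and 0.11 with 1 library left out. Cdkn1a, the p53-induced inhibitor of the cell cycle, had 95.1 and 98.4 CPM in Ctrl and 89.2 and 93.4 CPM in R+X (-0.08 ± 0.20). Mdm2, which degrades p53, had 44.2 and 49.6 CPM in Ctrl and 51 and 61 CPM in R+X (0.26 ± 0.18). Of that list, 3 of 28 genes were higher at an unadjusted p under 0.05, against 3.53% of all genes, and 0 were lower. With separate groups, 9 were higher and 7 lower, against 28.5% and 27.5% of all genes. Eda2r, of the TNF receptor family, had 3.47 and 3.41 CPM in Ctrl and 6 and 8.09 CPM in R+X (1.03 ± 0.36). Polk, a DNA polymerase that bypasses damage, had 18.1 and 18.5 CPM in Ctrl and 26.7 and 26.4 CPM in R+X (0.54 ± 0.21). Trp53inp1 had 2.18 and 1.95 CPM in Ctrl and 3.85 and 3.86 CPM in R+X (0.90 ± 0.37). Phlda3, of the same list, lay the other way with separate groups (-0.59 ± 0.30). Among 33 genes of DNA break and crosslink repair, 25 had positive fold changes, 19 of them with separate groups and 5 at an unadjusted p under 0.05, where 28.5% and 3.53% of all genes were. The median was 0.24, or 0.12 with the length trend removed. Brca2 had 24.6 and 21.6 CPM in Ctrl and 34.3 and 31.2 CPM in R+X (0.51 ± 0.22), or 0.13 with the length trend removed. Rad50, of the complex that senses breaks, had 58.4 and 48.6 CPM in Ctrl and 81.3 and 72.1 CPM in R+X (0.52 ± 0.23). Xrcc3 had 2.83 and 1.95 CPM in Ctrl and 4.04 and 3.96 CPM in R+X (0.74 ± 0.31).

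The 32 cell cycle genes had a median of 0.04, with 20 positive and 12 negative. With separate groups, 12 were higher and 8 lower, against 28.5% and 27.5% of all genes, so the list had no common direction. Mki67, which encodes the proliferation marker Ki-67, had 257 and 188 CPM in Ctrl and 375 and 332 CPM in R+X (0.67 ± 0.28). Cenpf, of the kinetochore, had 92.9 and 78.4 CPM in Ctrl and 125 and 123 CPM in R+X (0.54 ± 0.24). Both were at an unadjusted p under 0.05 and higher in both R+X libraries. No other gene of the list was at that p, and 3.53% of all genes were higher at it. With the length trend removed, Mki67 and Cenpf had 0.39 and 0.12. Genes of the BCL2 family and caspases had a median of -0.12, with 0 of 27 at an unadjusted p under 0.05. In the list of anthracycline transport and metabolism, 13 of 18 tested genes had negative fold changes, 7 of them with separate groups. The other 5 had positive ones, 4 of them with separate groups. Of all genes, 27.5% were lower and 28.5% higher with separate groups. The median was -0.24, between -0.37 and -0.02 with 1 library left out and -0.16 with the length trend removed. The exporter Abcc1 had 65.4 and 53.1 CPM in Ctrl and 86.7 and 86.6 CPM in R+X (0.55 ± 0.23), or 0.14 with the length trend removed, xanthine dehydrogenase Xdh had 129 and 92.5 CPM in Ctrl and 172 and 157 CPM in R+X (0.57 ± 0.24), and the aldo-keto reductase Akr1b3 had 114 and 146 CPM in Ctrl and 89.8 and 93.7 CPM in R+X (-0.50 ± 0.21). The drug exporters Abcb1a and Abcb1b had log2 fold changes of 0.47 ± 0.28 and 0.36 ± 0.20. Hmgb1 and Calr, whose proteins are released or exposed by dying cells, had log2 fold changes of -0.41 ± 0.20 and -0.21 ± 0.17.

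In hypoxia and glycolysis, 4 of 23 genes were higher at an unadjusted p under 0.05 and 0 lower, with a median of 0.10. Over all genes, 3.53% were higher at that p. The groups were separate in 11 genes with higher values and 3 with lower ones, against 28.5% and 27.5% of all genes. The summed level was 15667 and 18265 CPM in Ctrl and 16213 and 16655 CPM in R+X, with overlapping groups. Pdk1, a kinase that inhibits pyruvate dehydrogenase, had 103 and 106 CPM in Ctrl and 154 and 146 CPM in R+X (0.52 ± 0.19). Hk2, hexokinase 2, had 51.6 and 47.4 CPM in Ctrl and 67 and 71.6 CPM in R+X (0.48 ± 0.20). Egln3, a prolyl hydroxylase induced by HIF, had 64.2 and 75.2 CPM in Ctrl and 90.9 and 104 CPM in R+X (0.48 ± 0.19). Pfkp had a log2 fold change of 0.43 ± 0.19, or 0.06 with the length trend removed. The antioxidant enzyme gene Gpx1 had 399 and 608 CPM in Ctrl and 324 and 339 CPM in R+X (-0.60 ± 0.27). Hspe1, the mitochondrial chaperonin partner, had 163 and 249.7 CPM in Ctrl and 107 and 119 CPM in R+X (-0.86 ± 0.35). In these 2 genes Ctrl replicate 2 was far above the other 3 libraries. Ier2, an immediate early gene, had 114 and 167 CPM in Ctrl and 83.3 and 73.6 CPM in R+X (-0.84 ± 0.32). TGF-beta signalling genes had a median of 0.22 over 20 genes, or 0.13 without Ctrl replicate 2, and Tgfb2 had 1.43 and 1.23 CPM in Ctrl and 1.95 and 3.25 CPM in R+X (0.96 ± 0.35). In Notch signalling, Notch1 had 59.97 and 39.3 CPM in Ctrl and 80.2 and 71.8 CPM in R+X (0.61 ± 0.26) and its target Hes1 had 72.9 and 98.4 CPM in Ctrl and 56.5 and 49.6 CPM in R+X (-0.69 ± 0.28). The receptor and its target thus lay in opposite directions, each with separate groups, and Notch1 had 0.22 with the length trend removed.

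**Figure D5:**
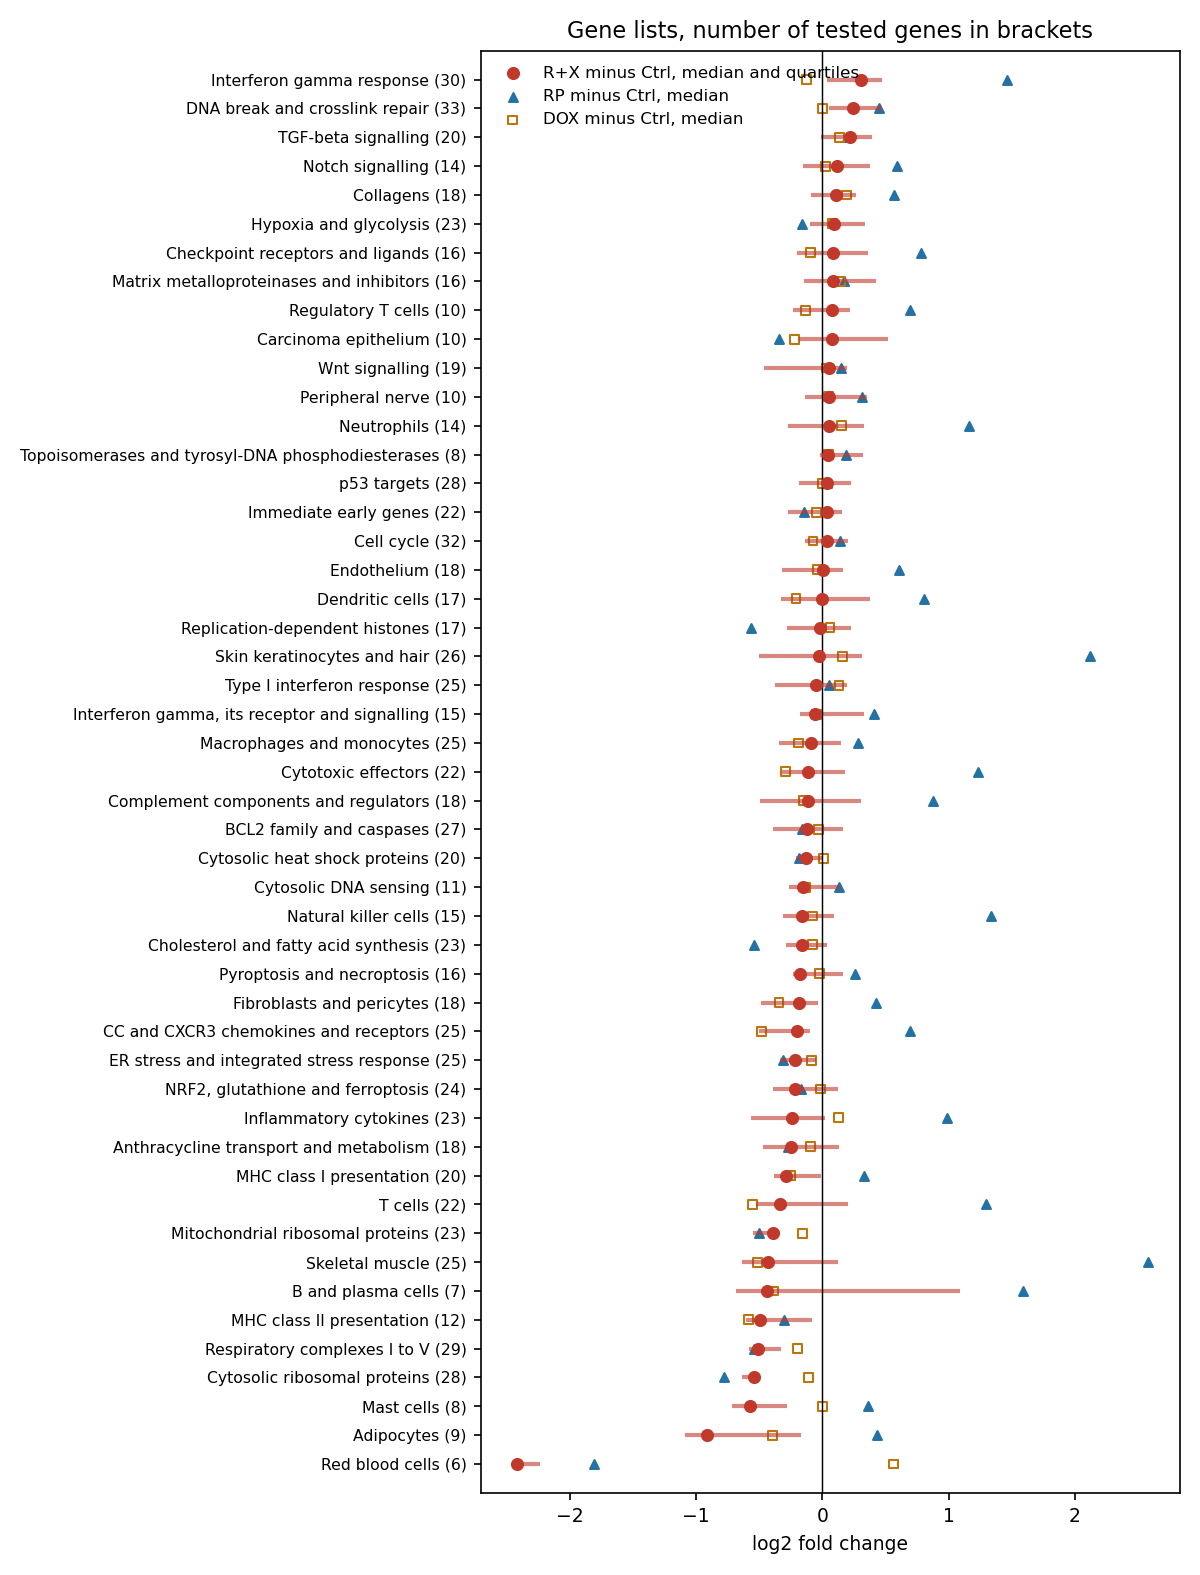
Median log2 fold change of each gene list (rows, number of tested genes in brackets) for R+X against Ctrl, with quartiles as bars, beside the medians of RP and of DOX against the same 2 Ctrl libraries (horizontal axis, log2). Red blood cells are lowest for R+X at -2.41, and interferon gamma response genes are at 0.30 for R+X and 1.46 for RP; all 3 contrasts share the Ctrl libraries.

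The difference between the combination and the conjugate alone was tested directly. Between R+X and RP, edgeR's quasi-likelihood test called 0 of 19525 genes (0%), with a lowest adjusted p of 0.0609. At an unadjusted p under 0.05, 439 genes were higher in R+X (2.25%) and 1255 lower (6.43%). These 1694 genes became 768 without R+X replicate 2 and 864 without RP replicate 1. DESeq2 called 35 higher and 270 lower, limma-voom called 5 in all, and edgeR called 7 without RP replicate 2. Interferon gamma response genes accounted for 18 of the 270, and all 30 of that list were lower in R+X, with a median of -1.22 and 28 at an unadjusted p under 0.05. Values in R+X, then in RP, follow for the 4 genes of smallest p on the lower side. Zbp1, a sensor of nucleic acids, had 33.2 and 26 CPM in R+X and 76.4 and 71 CPM in RP (-1.32 ± 0.17). Serpina3g, a protease inhibitor of activated immune cells, had 60.2 and 53 CPM and 131 and 134 CPM (-1.23 ± 0.16). Plac8 had 3.56 and 3.54 CPM and 17.8 and 12.9 CPM (-2.11 ± 0.26). Gja4, a gap junction protein of arteries, had 10.1 and 6.56 CPM and 40.2 and 31.7 CPM (-2.11 ± 0.28). By the rule that chose these 4 genes, their groups did not overlap, and each had an edgeR adjusted p of 0.0609.

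T cell genes had a median of -1.47 between R+X and RP, with 21 of 22 lower and 20 at an unadjusted p under 0.05. Cytotoxic effectors had -1.36, with 22 of 22 lower. Skeletal muscle genes had -2.81, with 25 of 25 lower and 20 at that level. Muscle genes summed to 601 and 334 CPM in RP against 238 and 224 CPM in R+X, and their part in the other differences was not tested. Cd274 had a log2 difference of -1.18 ± 0.27 between R+X and RP, with an edgeR adjusted p of 0.252. On the higher side stood Nr2f1, a nuclear receptor, with 65.9 and 72.3 CPM and 37 and 41 CPM (0.82 ± 0.19), the linker histone gene H1f2 with 88.4 and 166 CPM and 51.9 and 55.1 CPM (1.25 ± 0.29). Acot2 (0.82 ± 0.20) and Emp1 (0.65 ± 0.16). The adjusted p of these 4 was 0.252 to 0.26.

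Between R+X and DOX alone, edgeR called 0 genes (0%), with a lowest adjusted p of 0.965. At an unadjusted p under 0.05, 342 genes were higher in R+X (1.75%), and 1.04% of genes were lower. Both directions together held 546 genes, but 4591 without DOX replicate 2, 1114 without DOX replicate 1 and 348 without R+X replicate 1. DESeq2 called Trbv31 higher and Alas2 and Hbb-bt lower, and limma-voom called 0. The DESeq2 log2 difference of Trbv31 was 23.2, too large to be read as a size of change, and its level is not given here. Spearman's rho of exon length and the fold change of R+X against DOX was 0.27, and the part of length in this comparison was not tested. The DOX libraries differed widely from each other, and without DOX replicate 2 edgeR called 1 gene. The 4 named genes of smallest p below DOX were all of red cells. Hba-a1 had 9.91 and 15.9 CPM in R+X and 118 and 83.8 CPM in DOX (-2.97 ± 0.60). Hbb-bt had 6.54 and 9.62 CPM and 55.1 and 67.4 CPM (-2.92 ± 0.59). Alas2 and Hbb-bs were the other two. Above DOX, Apol6 and Apol10b, of the apolipoprotein L family, had log2 differences of 1.20 ± 0.28 and 0.69 ± 0.18. Chil3, a chitinase-like protein of macrophages, had 22.3 and 71.8 CPM in R+X and 14.6 and 6.76 CPM in DOX (2.14 ± 0.53). Irf4 had 1.51 and 2.96 CPM and 0.816 and 0.587 CPM (1.67 ± 0.43). In Chil3 and Irf4 the second R+X library carried most of the difference. Cd274 had a log2 difference of 0.44 ± 0.27, and interferon gamma response genes a median of 0.38, with 7 of 30 at an unadjusted p under 0.05 and 2 negative.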

How the data were processed

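RNA-seq of 12 MC38 tumour libraries was used, 2 in each of 6 groups. TRIzol RNA and the NEBNext Ultra kit were used, per the labels' protocols. Per the submitters' processing notes, the build was GRCm38 and the tools DESeq2, StringTie 1.3.5 and HISAT2 2.1.0. The role of strand in counting is not given in the sources used here, so reads of overlapping genes on either strand could have been mixed. The authors deposited raw counts per gene as whole numbers, in a table of 43698 rows, and each of the 12 per-library files equalled its column.

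Counts were fitted in R 4.3.3 with edgeR 4.0.16: quasi-likelihood test, TMM scaling, filterByExpr, 6 groups and 6 residual degrees of freedom. This left 19525 genes, over all of which p-values were adjusted (Benjamini-Hochberg). The biological coefficient of variation was 0.257, and totals ran from 46547114 to 56462259 counts. The ± after a log2 fold change is its standard error. Separate animals behind the libraries are not stated, so p-values cover the spread among samples only, and part of that may be technical. Replicates 1 and 2 name libraries in order of listing. The procedure was run on simulated counts with known changes, drawn from the means and spread of these same libraries. Its outcome is not given here. The simulated counts held no trend on length and no library that stood apart, so the simulation does not cover those features.

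Named genes were the 12 of smallest p in each direction with a mean of at least 1 CPM over the 4 libraries, groups that did not overlap and no predicted or clone name. To these came up to 4 of smallest p per list, a panel of immune and drug genes, and 4 in each direction against RP and DOX. The genes against RP and DOX had to meet the same conditions, without overlap of the groups compared. Trbv31 lies outside these rules and was named after its value was seen. The comparison, its genes and the gene lists were chosen with earlier results of these data known. Lists are described by counts and medians, with no list test. Some members of the lists and of the panel are counted but not reported here by name.

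Exon lengths came from GENCODE M21 and promoters from RefSeq (GRCm38.p6). Other settings were DESeq2 1.42.0, limma-voom (limma 3.58.1), RLE scaling, all genes unfiltered, only the compared groups, 1 library or the DOX libraries left out, and the trend on length removed. Summed names of a locus and the motifs AGATAA and CACCC were added after seeing the data. The 4 libraries of DPD and R+D entered only the fit and the plots.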

Additional observations from a re-analysis of the deposited data

How the results depend on the processing

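Between R+X and Ctrl, 0 genes were called in either direction under RLE scaling, without the low-count filter, with limma-voom, without the DOX libraries and with each library left out (0 to 0). DESeq2 called 3 higher and 1 lower, and the compared groups alone 2 higher and 4 lower. Against RP the count was 5 without the filter, 305 with DESeq2, 5 with limma-voom, 1 with the compared groups alone and 0 to 7 with 1 library left out. Against DOX it was 3 with DESeq2 and 0 to 1 with 1 library left out. The cause of these differences was not tested. With the length trend removed, 5 log2 fold changes of single genes changed sign among those recomputed: Ifng to 0.0823, Cxcl10 to 0.10, Top2b to -0.0827, Cbr1 to 0.15 and Pecam1 to -0.0176. With 1 library left out the sign changed in Pdcd1 (-0.93 to 0.24), Cd8a (-1.02 to 0.17), Gzmb (-0.18 to 0.48), Ifng (-0.39 to 0.18), Cxcl9 (-0.46 to 0.0864), Cxcl10 (-0.43 to 0.17), Irf1 (-0.39 to 0.12), Cbr1 (-0.50 to 0.35), Pecam1 (-0.0235 to 0.24), Col1a1 (-0.22 to 0.18) and Jchain (-2.13 to 0.23). List medians that changed sign with the length trend removed were those of cytotoxic effectors (0.08), collagens (-0.12) and endothelium (-0.03), among the lists whose median is given. RLE scaling moved the median of all genes from 0.0074 to -0.0011 on the log2 scale.

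A left-out library leaves 1 in its group, which was assumed to vary like the other groups. With 2 libraries a group, single libraries set much of the spread, as the counts at an unadjusted p under 0.05 show: 198 higher without Ctrl replicate 2 against 1482 without Ctrl replicate 1. No paired analysis was possible because the labels number no replicates.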
